A study of Mus musculus with 12 samples.

Results

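The genes described here are 10 regulators of the G1 phase of the cell cycle, read from RNA sequencing of epididymal white adipose tissue (eWAT) of obese mice: the D-type cyclins Ccnd1, Ccnd2 and Ccnd3, the E-type cyclins Ccne1 and Ccne2, the kinases Cdk4 and Cdk6, the inhibitors Cdkn1b and Cdkn2a, and the retinoblastoma gene Rb1. They were taken by gene symbol from the count table, from a list made with earlier results of these data known. All 10 were found among its 49315 genes, and all 10 were among the 18702 genes that passed the filter on low counts. Male mice were fed a diet with 60% fat for 12 weeks and received a weekly intraperitoneal injection of vehicle or of methotrexate (MTX, 1 mg/kg), an antifolate drug. The groups, each of 3 mice with 1 library per mouse, were miR-181a2b2flox/flox (flox) mice given vehicle, miR-181a2b2-/- (KO) mice given vehicle, flox mice given MTX and KO mice given MTX. The KO mice lack the Mir181a-2 and Mir181b-2 microRNA genes in all cells of the body, and the flox controls carry the same locus between loxP sites without deletion. The age of the mice is not given in the sources used here.

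In G1, mitogens raise the D-type cyclins, which bind Cdk4 or Cdk6, and these kinases phosphorylate the retinoblastoma protein. Phosphorylated retinoblastoma protein releases E2F factors, which switch on genes for DNA synthesis, among them the E-type cyclins that complete the phosphorylation together with Cdk2. Cdkn1b (p27) holds cyclin E kinases inactive, and Cdkn2a encodes p16, which blocks Cdk4 and Cdk6, as well as p19ARF, which stabilises p53. Mature adipocytes rarely divide, and in the fat of obese mice macrophages and stromal progenitors are among the cells that do.

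Depth ranged from 19495310 to 23976469 counts per library. The deletion could not be checked from these counts, since Mir181a-2 reached at most 2 counts, in 1 flox MTX library, and Mir181b-2 had 0 in every library. Levels are given as CPM, the count of a gene relative to the scaled total of its library, after scaling by trimmed mean of M values (TMM). The 10 adipocyte markers summed to between 9178 and 45810 CPM in every library, and none of them was at or under 3 counts throughout a group. The 10 macrophage markers summed to 605 to 1147 CPM in flox vehicle mice, 5053 to 10160 in KO vehicle mice, 830 to 5214 in flox MTX mice and 6779 to 11520 in KO MTX mice, and none was at or under 3 counts throughout a group. The 3 flox vehicle libraries stood apart by RNA of neighbouring organs: 14 epididymis markers summed to 1457 to 11630 CPM there, against at most 10.8 in KO vehicle, 478 in flox MTX and 11.8 in KO MTX libraries, and 10 testis germ cell markers to 192 to 544 CPM, against at most 2.52, 1.00 and 11.6. In tissue RNA, fewer cells of a type and less RNA per cell cannot be told apart.

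The sequences that the deletion removes are shown first, because a seed match in a member can be read only against them. Capitals mark the seed, bases 2 to 8 from the 5′ end, which both microRNAs share. Both mature sequences are also made from a second hairpin gene each that the KO leaves in place. Sequences are from RefSeq (GRCm38.p6), at chr2:38852741-38852763 and chr2:38853845-38853868 on the plus strand.
mmu-miR-181a-5p: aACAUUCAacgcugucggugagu
mmu-miR-181b-5p: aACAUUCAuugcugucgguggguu
The complement of the seed, TGAATGT, was searched on the transcript strand of the 3′ UTR of 1 transcript per gene. It occurred in 1 of the 10 members, Cdk6, whose 3′ UTR is 10217 bases long, and in 17.5% of 15391 tested genes, whose median 3′ UTR is 1094 bases long. The match lies at base 9545 of that UTR (GRCm38, chr5:3530336-3530342, plus strand). The stretch shown is chr5:3530325-3530353, with the match in capitals.
Cdk6 seed match: gtatccaagggTGAATGTgacgtatctcc

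Promoters are shown for Cdk6 and Cdkn2a, which were called in the comparisons below, and for Cdk4, the kinase with which Cdk6 is compared. Ccnd1 was called as well, but it had no entry among the promoter sequences used here. Each is given as the 250 bases upstream of a RefSeq start, read 5′ to 3′ on the gene's strand (GRCm38.p6). Capitals mark matches on either strand to the E-box CACGTG or to the E2F sites TTTCCCGC, TTTCGCGC, TTTGCCGC and TTTGGCGC. No E-box overlapped an E2F site. The windows lie at chr10:127063285-127063534 (plus strand) for Cdk4, at chr5:3343643-3343892 (plus strand) for Cdk6, and at chr4:89294620-89294869 and chr4:89282193-89282442 (minus strand) for the upstream and downstream starts of Cdkn2a.
Cdk4: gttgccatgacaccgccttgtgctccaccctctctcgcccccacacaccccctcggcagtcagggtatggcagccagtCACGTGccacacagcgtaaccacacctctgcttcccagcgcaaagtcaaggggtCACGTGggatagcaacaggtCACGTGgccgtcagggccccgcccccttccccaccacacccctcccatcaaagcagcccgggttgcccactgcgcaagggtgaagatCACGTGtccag
Cdk6: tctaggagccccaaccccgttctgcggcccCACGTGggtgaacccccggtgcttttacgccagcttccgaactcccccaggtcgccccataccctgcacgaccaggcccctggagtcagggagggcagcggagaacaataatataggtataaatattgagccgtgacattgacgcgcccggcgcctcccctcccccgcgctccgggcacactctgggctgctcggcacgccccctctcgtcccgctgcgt
Cdkn2a upstream start: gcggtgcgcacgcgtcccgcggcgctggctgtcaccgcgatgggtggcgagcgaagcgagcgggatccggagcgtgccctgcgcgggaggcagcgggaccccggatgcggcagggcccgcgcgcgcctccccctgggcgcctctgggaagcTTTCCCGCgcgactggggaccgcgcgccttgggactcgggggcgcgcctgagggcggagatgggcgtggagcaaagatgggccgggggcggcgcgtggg
Cdkn2a downstream start: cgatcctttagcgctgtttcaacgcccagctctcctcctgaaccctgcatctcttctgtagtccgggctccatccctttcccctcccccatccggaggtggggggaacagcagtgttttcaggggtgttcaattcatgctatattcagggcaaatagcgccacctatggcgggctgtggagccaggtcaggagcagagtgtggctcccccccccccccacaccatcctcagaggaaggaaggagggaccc
The Cdk4 window held 4 E-boxes and the Cdk6 window 1, against 6.02% of 32851 promoters of the same length with any and 0.0609% with at least 3. The upstream Cdkn2a window held the only E2F match among 8 windows of 6 members with an entry, and 1.86% of all promoters held one. The starts of Cdkn2a lie 12427 bases apart, and the 2 annotated transcripts share 49.1% of their exonic bases, so the gene counts do not separate p16 from p19ARF.

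Per kilobase of exon, the members covered a wide range. The length counted the exons of all annotated transcripts of a gene, so the order between genes depends on the annotation. In flox vehicle mice Ccnd2 was the most abundant, at 46.5 CPM per kb (range 38.3 to 59.4), followed by Cdk4 at 21.1 (16.1 to 26.7) and Ccnd3 at 12.9 (11.8 to 14.6), and these did not overlap. Cdkn1b at 9.46, Ccnd1 at 8.60 and Rb1 at 8.31 CPM per kb formed a middle tier whose libraries overlapped. Ccne1 at 2.502, Cdk6 at 1.74, Ccne2 at 1.47 and Cdkn2a at 1.01 CPM per kb were lowest, each overlapping its neighbour in that order. In KO MTX mice the order differed in its middle and lower part: Ccnd1 came after Ccnd2 and Cdk4 by mean, at 14.1 CPM per kb (10.4 to 17.0), overlapping Ccnd3 at 13.7 (13.3 to 14.5) and Cdkn1b at 12.97 (11.2 to 15.9), and Cdk6 reached 4.41 (3.51 to 5.96), overlapping Ccne1 at 3.44 (3.25 to 3.54). Exons of 7 of the 10 members overlap exons of another gene on the opposite strand, which covers 23.4% of the exonic bases of Ccnd1 (shared with LTO1), 19.7% of Cdk4 (Tspan31) and 17.4% of Ccne2 (Ints8) and less than these of the others. The strand setting of the counting is not given in the sources used here, so reads of these stretches could not be assigned.

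**Figure D1:**
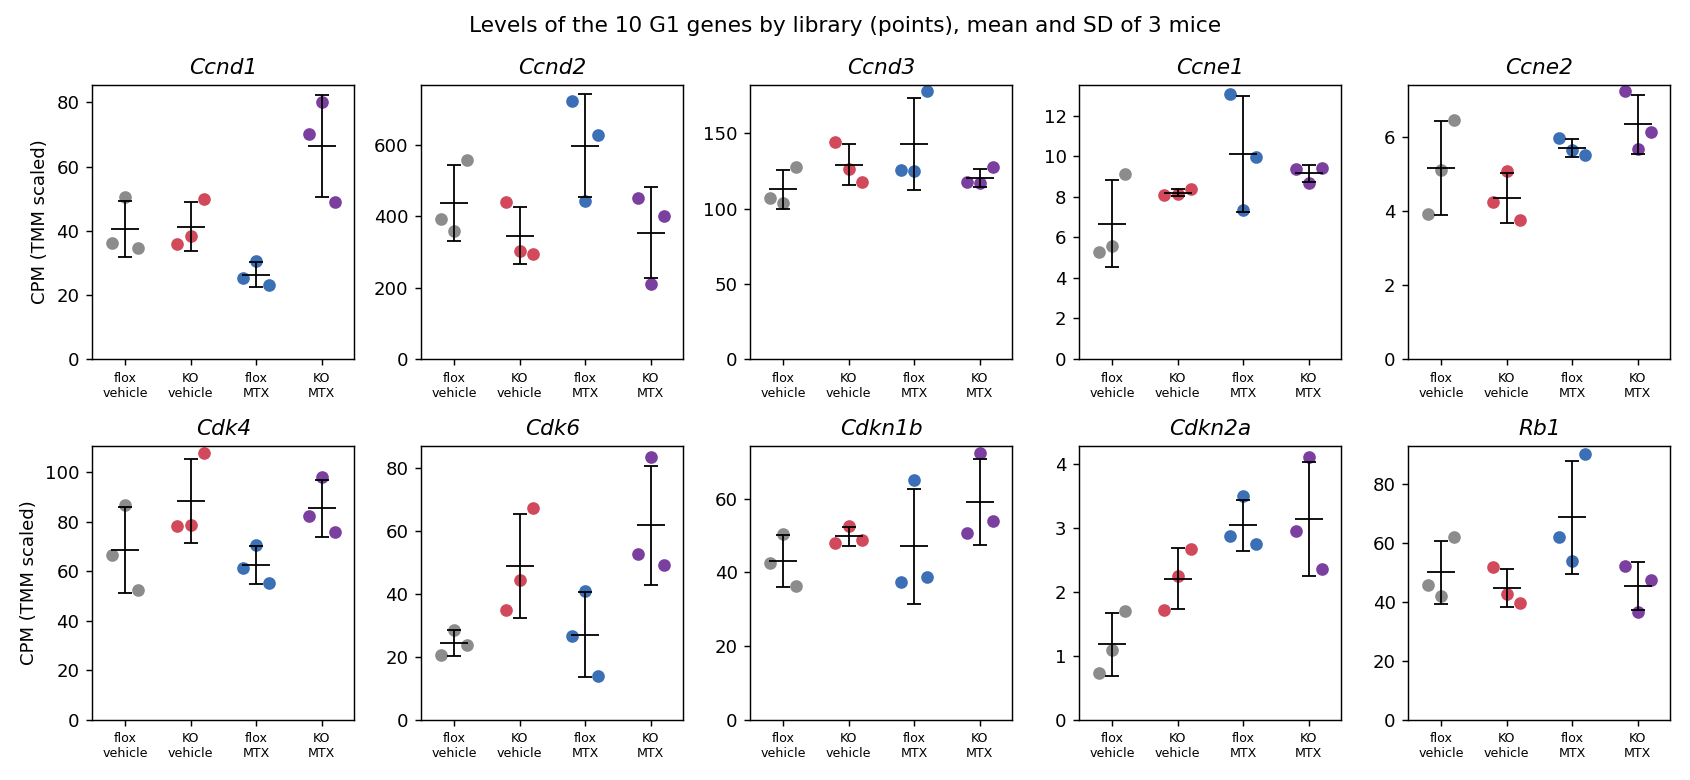
CPM (TMM scaled, linear axis from 0) of each of the 10 genes in flox vehicle, KO vehicle, flox MTX and KO MTX mice, with 1 point per mouse and the mean and SD of 3 mice. Cdk6 and Cdkn2a of KO vehicle mice lie above all flox vehicle mice, and Ccnd1 of the 3 KO MTX mice (48.9 to 80.2 CPM) lies above all flox MTX mice (23.0 to 30.6 CPM).

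Under vehicle, the comparison of KO with flox mice asks how eWAT of obese mice differs without the microRNA pair. Cdk6 (log2 fold change 1.00) and Cdkn2a (0.90) rose in KO mice, and the other 8 members were not called. A gene was called at an adjusted p below 0.1 by edgeR's quasi-likelihood test with Benjamini-Hochberg adjustment and a fold change of at least 1.5. The 2 members called stand beside 31.7% of all 18702 genes called, 13.9% called higher and 17.8% called lower. The same 2 members had an unadjusted p below 0.05, beside 41.0% of all genes, and groups that did not overlap, beside 48.1%. The median log2 fold change of the 10 members was 0.20, and that of all genes -0.06.

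Under MTX, the same comparison asks whether the genotypes differ when both receive the drug. No member was called by edgeR, nor was any gene (0% of 18702), while 5 members and 24.5% of all genes had an unadjusted p below 0.05. The 5 were Ccnd1 (1.34), Cdk6 (1.19) and Cdk4 (0.45) with positive and Ccnd2 (-0.76) and Rb1 (-0.60) with negative log2 fold changes, KO against flox. Groups did not overlap for 4 members (Ccnd1, Cdk4, Cdk6 and Rb1) and for 26.8% of all genes. DESeq2 called 4 members, Ccnd1 and Cdk6 higher and Ccnd2 and Rb1 lower, and 14.8% of all genes. Without flox MTX mouse 2 edgeR called 5 members (these 4 and Cdkn1b, higher), beside 4064 of the 19532 genes tested in that fit. The smallest adjusted p over all genes was 0.104 in this comparison, and Ccnd1 was among the genes that had it. The study drew a cell cycle network for this comparison from the same mice, so the values here are not independent evidence on it.

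MTX against vehicle in flox mice asks for the effect of the drug where the microRNA locus is intact. Cdkn2a rose (1.36) and Ccnd1 fell (-0.62 on the log2 scale), beside 24.2% of all genes called, 8.09% higher and 16.1% lower. The groups of these 2 members did not overlap, nor did those of 28.4% of all genes, and with Ccne1 (0.60) 3 members had an unadjusted p below 0.05, beside 34.2%. In KO mice no member and no gene was called with MTX (0%), 2 members (Ccnd1, 0.69, and Ccne2, 0.54) and 7.97% of all genes had an unadjusted p below 0.05, and DESeq2 called no member and 281 of all genes. The flox vehicle group serves in both the genotype comparison under vehicle and the drug comparison in flox mice, so the values of a gene in these comparisons share its 3 libraries.

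The genotype by treatment interaction tests whether the response to MTX differed between KO and flox mice. No member was called (0.989% of all genes were, 0.898% with a higher and 0.0909% with a lower value). Among the 10, only Ccnd1 had an unadjusted p below 0.05, as did 15.0% of all genes, with a difference of log2 fold changes of 1.31 ± 0.31 (SE) and an adjusted p of 0.104 by edgeR. DESeq2 called Ccnd1 (1.32, adjusted p = 0.00708), as it did 6.67% of all genes. For the other 9 members the adjusted p by edgeR lay between 0.396 and 0.905.

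**Figure D2:**
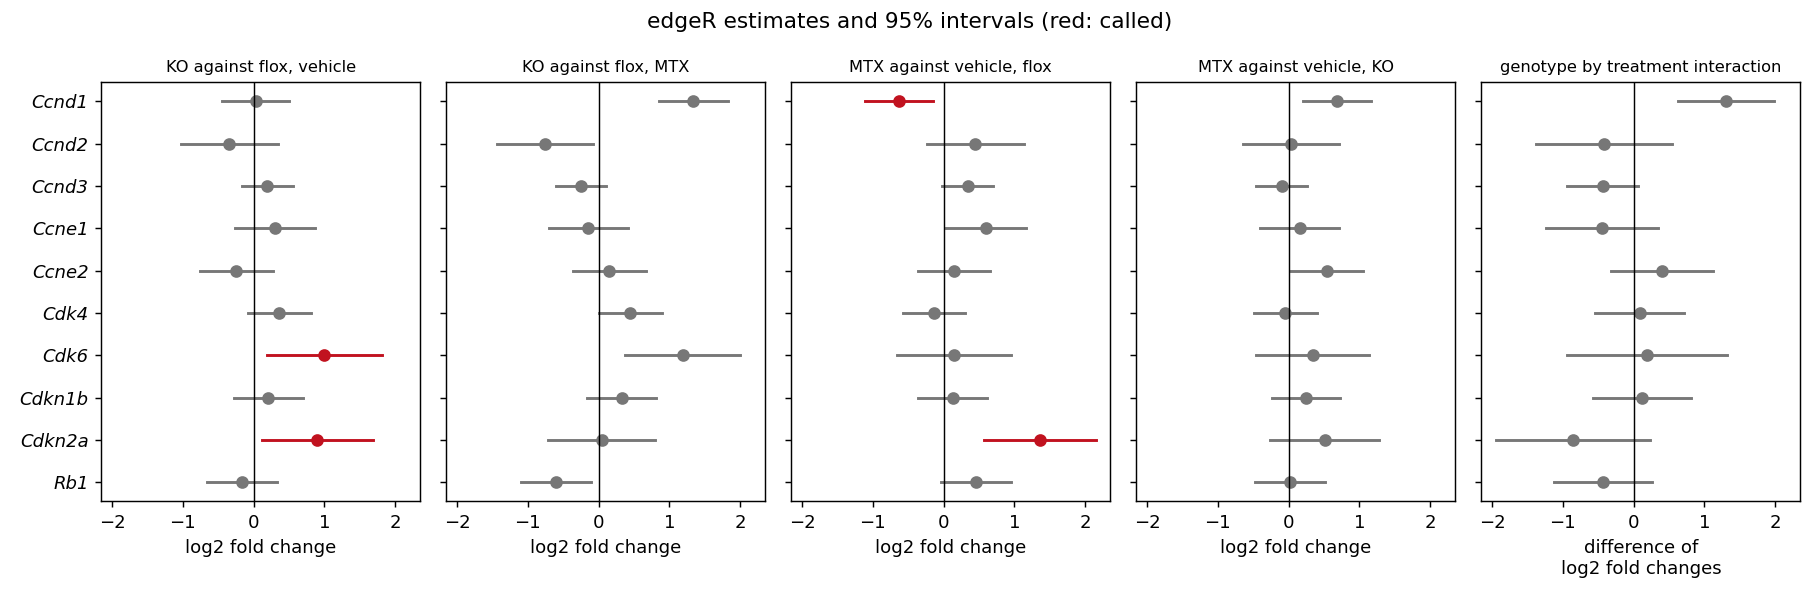
edgeR log2 fold changes of the 10 genes (points) with 95% intervals (lines) in the 4 pairwise comparisons, and the difference of log2 fold changes for the interaction, with called genes in red. Cdk6 and Cdkn2a are called for KO against flox under vehicle, and Cdkn2a (higher) and Ccnd1 (lower) for MTX against vehicle in flox mice.

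Among the D-type cyclins, which activate Cdk4 and Cdk6, Ccnd1 had the largest estimate of the genotype by treatment interaction among the 10 members. Ccnd1 was 36.1, 50.5 and 34.8 CPM in flox vehicle mice 1, 3 and 4, and 35.7, 38.3 and 49.9 CPM in KO vehicle mice 1, 2 and 3. With MTX it was 25.4, 30.6 and 23.0 CPM in flox mice 1, 2 and 4, and 70.2, 80.2 and 48.9 CPM in KO mice 2, 3 and 4. The vehicle groups overlapped, the flox MTX mice were all below the flox vehicle mice, and the KO MTX mice were all above the flox MTX mice. The log2 fold change, KO against flox, was 0.03 ± 0.22 (SE) under vehicle (adjusted p = 0.939) and 1.34 ± 0.22 under MTX (adjusted p = 0.104), which is 2.53-fold with a 95% interval of 0.85 to 1.82 on the log2 scale, in the edgeR fit. With MTX it fell by 0.62 ± 0.22 (SE) in flox mice (adjusted p = 0.0685, edgeR) and was 0.69 ± 0.22 in KO mice, where the adjusted p was 0.405 and KO vehicle mouse 3 lay above KO MTX mouse 4. The fall in flox mice was not called without flox vehicle mouse 3 (-0.43, adjusted p = 0.268 by edgeR), the library with the highest epididymis sum and the highest Ccnd1 of its group, nor without flox MTX mouse 1 (-0.60, 0.142) or 4 (-0.53, 0.160). The part of epididymis RNA in these values was not tested.

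Ccnd2 had the highest mean CPM per kb of the members in every group. Its libraries overlapped those of Cdk4 on that scale in KO vehicle mice (31.36 to 46.65 against 24.12 to 33.2). In KO MTX mice they overlapped as well (22.27 to 48.09 against 23.32 to 30.22). Ccnd2 was not called by edgeR in any comparison of the 12 libraries. It was 393, 360 and 559 CPM in flox vehicle mice, 439, 304 and 295 in KO vehicle mice, 724, 442 and 629 in flox MTX mice and 453, 210 and 401 in KO MTX mice, the mice in the order given for Ccnd1. The MTX groups overlapped through flox mouse 2 and KO mouse 2, and their log2 difference, KO against flox, was -0.76 ± 0.31 (SE, adjusted p = 0.173 by edgeR). DESeq2 called this difference (-0.77, adjusted p = 0.0815), as did edgeR without flox MTX mouse 2 (-0.93, adjusted p = 0.0763). Ccnd3, the D-type cyclin prominent in blood cells, was not called by edgeR in any comparison: its group means lay between 113 CPM in flox vehicle and 143 CPM in flox MTX mice, all groups overlapped in all pairwise comparisons, and its log2 fold changes lay between -0.25 and 0.34.

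A ratio of 2 genes within a library does not depend on how libraries are scaled. The log2 ratio of Ccnd1 to Ccnd2 counts was -4.84, -3.86 and -4.77 in flox MTX mice and -2.69, -1.39 and -3.04 in KO MTX mice, without overlap, a difference of 2.12 or 4.34-fold. Under vehicle the ratios overlapped, with means of -3.43 ± 0.59 (SD, n = 3) in flox and -3.06 ± 0.53 in KO mice. The log2 ratio of Ccnd1 to Ccnd3 likewise differed by 1.54 between KO and flox mice under MTX and by -0.94 between MTX and vehicle in flox mice, both without overlap. In each of these non-overlapping comparisons the two-sided exact permutation p was 0.1, the smallest that 3 against 3 mice can give, and 12 ratio comparisons were made in all. As a share of D-type cyclin reads per kb, Ccnd1 took 13.1% ± 4.3 (SD, n = 3) in flox vehicle, 14.9% ± 4.2 in KO vehicle, 6.82% ± 2.40 in flox MTX and 22.4% ± 8.9 in KO MTX mice. Ccnd2 took 67.9%, 60.6%, 73.9% and 56.1% in the same order, and remained the largest share in all 12 libraries. The size of each share depends on the exon lengths used.

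**Figure D3:**
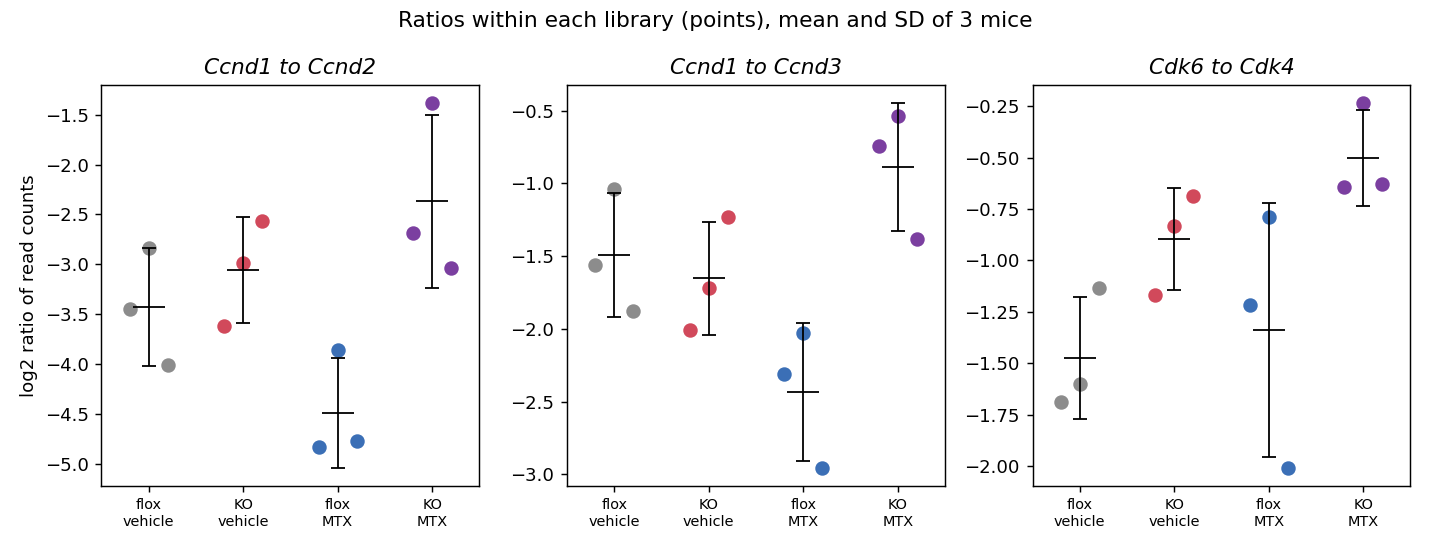
Log2 ratios of read counts within each library for Ccnd1 to Ccnd2, Ccnd1 to Ccnd3 and Cdk6 to Cdk4 (points: 1 mouse each, with the mean and SD of 3 mice; counts not divided by length; axes do not start at 0). Both Ccnd1 ratios of KO MTX mice lie above those of flox MTX mice, with mean differences of 2.12 and 1.54.

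The E-type cyclins, which with Cdk2 carry cells into S phase, were low and were not called by edgeR in any comparison. Ccne1 was 5.29, 5.57 and 9.13 CPM in flox vehicle mice and 13.1, 7.35 and 9.94 CPM in flox MTX mice, a log2 difference of 0.60 ± 0.26 (SE, adjusted p = 0.121 by edgeR). Flox vehicle mouse 4 lay within the range of the MTX mice; without it edgeR called Ccne1 (0.90, adjusted p = 0.0215), and DESeq2 called it with all libraries (0.61, adjusted p = 0.0875). The KO groups were narrow, at 8.11 to 8.38 CPM with vehicle and 8.66 to 9.43 CPM with MTX, and did not overlap, with a log2 difference of 0.16 and an adjusted p of 0.918 by edgeR. Ccne2 was 4.23, 5.08 and 3.75 CPM in KO vehicle mice and 7.22, 5.67 and 6.11 CPM in KO MTX mice. These groups did not overlap either, beside 20.7% of all genes, and the log2 difference was 0.54 ± 0.23 (SE, adjusted p = 0.594 by edgeR). In flox mice Ccne2 ranged from 3.90 to 6.45 CPM with vehicle and from 5.50 to 5.95 CPM with MTX, so that the MTX values lay inside the vehicle range.

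Of the kinases, Cdk6 was called between genotypes under vehicle and Cdk4 was not called in any comparison by edgeR or DESeq2. Cdk6 was 20.7, 28.6 and 23.8 CPM in flox vehicle mice and 34.9, 44.3 and 67.1 CPM in KO vehicle mice, with every KO mouse above every flox mouse. It rose 2.00-fold in KO mice (log2 1.00 ± 0.37, SE, adjusted p = 0.0634 by edgeR). The call was lost without flox mouse 1 (0.90, adjusted p = 0.166), flox mouse 4 (0.99, 0.116) or KO mouse 3 (0.71, 0.233). With MTX Cdk6 was 26.5, 40.9 and 13.8 CPM in flox mice and 52.7, 83.4 and 49.0 CPM in KO mice, again without overlap, a log2 difference of 1.19 ± 0.37 (SE, adjusted p = 0.116 by edgeR). Within flox MTX mice Cdk6 spanned 13.8 to 40.9 CPM, lowest in mouse 4 and highest in mouse 2. The macrophage sum was lowest and highest in the same mice, at 830 and 5214 CPM, and across all groups the sums given above were higher in both KO groups than in flox vehicle mice. The part of macrophage number in the Cdk6 values was not tested. MTX itself moved Cdk6 by 0.15 ± 0.37 in flox and 0.34 ± 0.36 (log2, SE) in KO mice, and neither was called.

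Cdk4 was 66.6, 86.9 and 52.4 CPM in flox vehicle mice and 78.4, 78.9 and 108 CPM in KO vehicle mice, which overlapped (log2 0.36 ± 0.20, SE, adjusted p = 0.198 by edgeR). With MTX it was 61.5, 70.7 and 55.3 CPM in flox mice and 82.4, 98.2 and 75.8 CPM in KO mice, without overlap but with a log2 difference of 0.45 ± 0.20 (SE, adjusted p = 0.200). The Cdk6 to Cdk4 ratio, on the log2 scale, was -1.22, -0.79 and -2.01 in flox MTX mice and -0.64, -0.24 and -0.63 in KO MTX mice, a difference of 0.84. It also differed between KO MTX and KO vehicle mice, by 0.39, without overlap (exact permutation p = 0.1 in both, two-sided). The ratio overlapped between KO and flox mice under vehicle, where Cdk6 was called (0.58, exact permutation p = 0.2), and between MTX and vehicle in flox mice (0.14, exact permutation p = 0.8).

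The inhibitors did not move together. Cdkn2a was the least abundant member by count, at 17 to 95 counts per library, so its values carry the widest counting error of the 10. It was 0.74, 1.10 and 1.71 CPM in flox vehicle mice, 1.71, 2.24 and 2.67 in KO vehicle mice, 2.88, 3.495 and 2.75 in flox MTX mice and 2.96, 4.11 and 2.36 in KO MTX mice. The highest flox vehicle mouse (1.706 CPM) and the lowest KO vehicle mouse (1.712 CPM) almost met, while every flox MTX mouse exceeded every flox vehicle mouse. Cdkn2a rose 1.87-fold in KO mice under vehicle (log2 0.90 ± 0.36, SE, adjusted p = 0.0803 by edgeR) and 2.57-fold with MTX in flox mice (log2 1.36 ± 0.36, SE, adjusted p = 0.0248). The first call was lost without flox mouse 1 (0.66, adjusted p = 0.227 by edgeR), flox mouse 3 (0.85, 0.171), KO mouse 2 (0.90, 0.147), KO mouse 3 (0.75, 0.226) or KO MTX mouse 2 (0.91, 0.102). The second held with each library left out, at log2 1.12 to 1.73 and adjusted p of 0.00953 to 0.0919 by edgeR, and was not called with the 6 flox libraries fitted alone (1.35, 0.114). In that comparison 8 of 10 macrophage, 5 of 8 stromal, 5 of 7 T cell, 3 of 6 B cell and 5 of 6 mesothelium markers were called higher and none lower, with medians of 1.74, 1.05, 1.91, 2.51 and 1.62. The T cell sums were 8.71 to 17.3 CPM in flox vehicle and 24.8 to 80.3 CPM in flox MTX mice, the B cell sums 12.5 to 33.1 and 22.2 to 307 CPM, and the mesothelium sums 86.3 to 166 and 222 to 455 CPM, with no marker at or under 3 counts throughout a group. Their part in the Cdkn2a values was not tested. In the same comparison 10 of 10 testis germ cell markers (median -8.64) and 5 of 7 tested epididymis markers (-5.09) were called lower. The part of these organs was not tested either. Under MTX the Cdkn2a levels of the genotypes overlapped (0.05 ± 0.34), and the interaction was -0.86 ± 0.50 (SE, adjusted p = 0.435 by edgeR).

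Cdkn1b, in contrast, was between 36.3 and 72.4 CPM in all 12 libraries, with group means of 43.1 CPM in flox vehicle, 49.8 in KO vehicle, 47.1 in flox MTX and 59.0 in KO MTX mice, and its groups overlapped in every pairwise comparison. It was not called by edgeR in any comparison of the 12 libraries, with log2 fold changes of 0.13 to 0.33 in the pairwise ones. Flox MTX mouse 2 had 65.0 CPM against 37.4 and 38.7 CPM in the other flox MTX mice, and without it Cdkn1b was called for KO against flox under MTX (0.63, adjusted p = 0.0439 by edgeR).

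Rb1, whose protein the G1 kinases inactivate, was 45.8, 42.1 and 62.0 CPM in flox vehicle mice and 52.0, 42.5 and 39.7 CPM in KO vehicle mice, which overlapped. With MTX it was 61.9, 53.8 and 90.2 CPM in flox mice and 52.2, 36.5 and 47.3 CPM in KO mice, where every KO mouse lay below every flox mouse. The log2 difference, KO against flox, was -0.16 ± 0.22 (SE) under vehicle and -0.60 ± 0.22 under MTX, with adjusted p of 0.621 and 0.145 by edgeR. DESeq2 called the difference under MTX (-0.62, adjusted p = 0.0759), as did edgeR without flox MTX mouse 2 (-0.75, adjusted p = 0.0529). MTX moved Rb1 by 0.46 ± 0.22 in flox mice (adjusted p = 0.172 by edgeR) and by 0.02 ± 0.22 in KO mice. In flox mice edgeR called it without flox vehicle mouse 4 (0.65, adjusted p = 0.0659) or flox MTX mouse 2 (0.62, 0.0846). In the MTX groups Rb1 and Ccnd2 had negative and Ccnd1, Cdk4 and Cdk6 positive differences, and the adipocyte sums there were 25980 to 45810 CPM in flox and 9178 to 22810 CPM in KO mice. The part of adipocyte content in these differences was not tested.

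Beyond the 10 members, 26 other genes of the G1 pathway were read: further kinases and inhibitors, the pocket proteins Rbl1 and Rbl2, the E2F factors with their partners, the ubiquitin ligase parts that turn cyclin E and p27 over, and Myc. Under vehicle 7 of the 26 rose and 1 fell in KO mice, with a median log2 fold change of 0.20, a share of calls near the 31.7% of all genes, so that the count is no result about the list. E2f8 (2.20), E2f7 (1.13), E2f1 (0.95) and E2f2 (0.70) rose, of which E2f1 and E2f2 activate S phase genes and E2f7 and E2f8 repress them. Myc (1.31), a growth factor response gene, and the inhibitors Cdkn1c (0.86, p57) and Cdkn1a (0.85, p21) rose as well, though the Cdkn1a groups overlapped. E2f5, which acts with the pocket proteins in resting cells, fell by 1.16 on the log2 scale. Its flox vehicle counts were 385, 770 and 217, in the same order as the epididymis sums of those mice, 4502, 11630 and 1457 CPM, and the part of epididymis RNA in them was not tested. With MTX in flox mice 4 of the 26 rose (E2f2, 1.14, E2f8, 1.03, E2f1, 0.69, and Cks1b, 0.68, a cofactor of p27 turnover) and E2f5 fell (-1.24), with a median of 0.21, beside 24.2% of all genes called. The groups of E2f1, E2f8 and Cks1b overlapped there. Under MTX, KO against flox, none was called and 10 had an unadjusted p below 0.05, beside 24.5% of all genes, with a median of 0.14. In KO mice given MTX none was called and 2 had an unadjusted p below 0.05, beside 7.97% of all genes.

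Among 20 S phase and mitosis genes, which act downstream of the members, 16 rose in KO vehicle mice, beside 13.9% of all genes called higher, with a median log2 fold change of 1.45 against -0.06 for all genes. Mki67, a proliferation marker, rose by 2.05, and Ccna2, the S phase cyclin, by 1.77. Markers of several cell types were higher in the same comparison. Called higher were 10 of 10 of macrophages (median log2 fold change 2.61), 7 of 8 of fibroblasts and stromal progenitors (1.596) and 6 of 8 of endothelium (1.14). Of the stromal markers 1 was called lower. Also called lower were 3 of 10 adipocyte (median -0.75), 10 of 10 testis germ cell (-7.88) and 5 of 7 tested epididymis markers (-9.00). The stromal sums were 1643 to 3278 CPM in flox vehicle, 6602 to 10900 in KO vehicle, 3071 to 6146 in flox MTX and 6935 to 8596 in KO MTX mice, and the endothelial sums 276 to 411, 600 to 902, 251 to 562 and 413 to 692 CPM, with no marker at or under 3 counts throughout a group. Their part in the levels of the S phase and mitosis genes was not tested. Under MTX, KO against flox, all 20 were positive with a median of 1.10, 19 had an unadjusted p below 0.05 (24.5% of all genes), the groups did not overlap for 19 (26.8% of all genes), and none was called by edgeR. With MTX in flox mice 6 of the 20 rose, beside 8.09% of all genes called higher, with a median of 0.60, and in KO mice none was called, with a median of 0.30. The members' own medians were 0.20, 0.10, 0.25 and 0.20 in these comparisons.

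**Figure D4:**
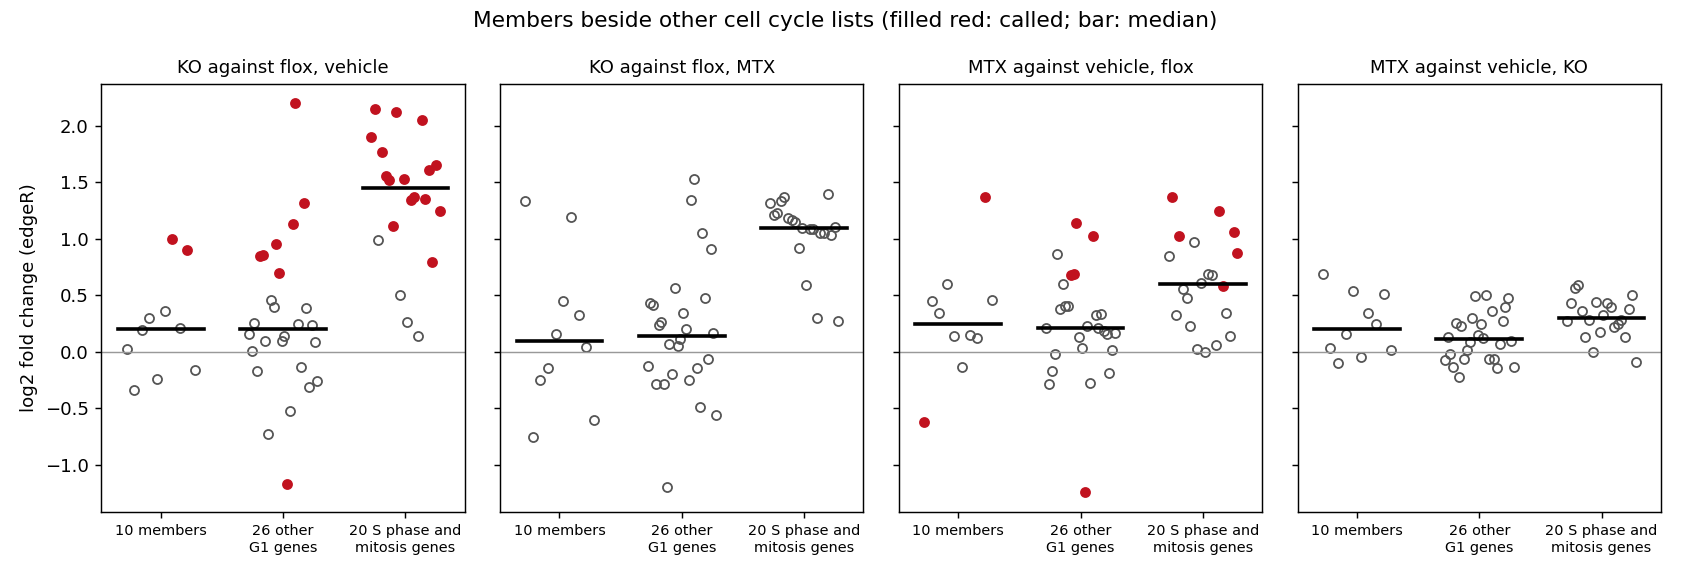
edgeR log2 fold changes in the 4 pairwise comparisons of the 10 members, 26 other G1 genes and 20 S phase and mitosis genes (points: 1 gene each, filled red where called; bars: medians). The S phase and mitosis genes have medians of 1.45 (vehicle) and 1.10 (MTX) in the genotype comparisons, and the members 0.20 and 0.10.

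The genes most like each member were found by the root mean square difference of log2 CPM, centred on each gene's mean, over the 12 libraries. For Ccnd1 they were Tmem164 (0.18), Gm33280 (0.21) and Dnmt1 (0.22), beside a root mean square of 0.52 for Ccnd1 itself. For Cdk6 they were Ncs1 (0.13), Elmo1 (0.16) and Zfp710 (0.16), beside 0.71. Cdkn2a was nearest to Ugt1a7c (0.23), Xcl1 (0.25) and Serpinb1a (0.25), beside 0.64, and Ccnd2 to Glrx5 (0.11), Msrb3 (0.15) and Chp1 (0.15), beside 0.47. Cdk4 and Rb1, with root mean squares of 0.30 and 0.34, had nearer neighbours, Sf3a2 at 0.07 and Emc2 at 0.06. No member was among the 3 genes nearest to another member.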

How the data were processed

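RNA from eWAT of 12 mice was sequenced. The deposited values are whole read counts per Ensembl gene, without normalization. Per the submitters' processing notes the authors used Trimmomatic 0.36, STAR 2.5.2b and featureCounts of Subread 1.5.2 with GRCm38. The labels and the study's methods differ on RNA selection (poly(A) against ribodepletion) and on read length, and neither the strand option nor the handling of multi-mapping reads is given in the sources used here. Genes without a symbol held 0.0688% of the counts.

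Counts were fitted with edgeR 4.0.16 in R 4.3.3 (TMM factors, filterByExpr, quasi-likelihood F test, 1 coefficient per group over 12 libraries, Benjamini-Hochberg adjustment over 18702 genes). The code was tested on simulated counts. The study's methods name DESeq2 with a false discovery rate limit of 0.1 and write the second limit as log2 fold-change (1.5). That limit was read here as 1.5-fold, and a log2 fold change of at least 1.5 was an alternative. DESeq2 1.42.0, other scaling and filters, stricter limits, a replicate block, a fit of 6 libraries and leaving out each library were alternatives. Exact permutation tests were two-sided, and 3 against 3 mice cannot give less than 0.1. The 10 genes and all lists were chosen with earlier results of these data known, and all members were named. The other G1 genes given with values are those called in any comparison, and 3 nearest genes were taken per member. Coordinates and exon lengths are from GENCODE M21, with the exons of all annotated transcripts of a gene merged for its length. Counts of same-group libraries differed by at least 14.1 times sampling noise (chi-square per degree of freedom), so no library was counted as a duplicate. Nothing but the mouse number tells the libraries of a group apart. The p-values of the main edgeR fit weigh a group difference against a spread between mice estimated over all 12 libraries.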

Additional observations from a re-analysis of the deposited data

How the results depend on the processing

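Of 940 values of the 10 members under alternatives, 850 kept direction and call, 24 gained a call, 20 lost one and 46 changed sign, in each case for a value that was not called. The number of members called for KO against flox under vehicle (2) became 0 at an adjusted p below 0.05, 0 at a log2 fold change of at least 1.5, 0 with library size scaling, 1 (Cdk6) without a filter and 1 (Cdk6) with 6 libraries, and ranged from 0 to 2 with 1 library left out. In the same order, all genes called were 4843, 3026 and 5689 of 18702, 6646 of 34653, 5942 of 17934, and 4640 to 6828. For KO against flox under MTX (0) it became 4 with DESeq2, 2 (Ccnd1 and Cdk6) without a filter, 2 (the same genes) with a minimum of 10 counts per library, and 0 to 5 with 1 library left out. All genes called there were 2769 of 18702, 875 of 34653, 1491 of 14132, and 0 to 4064. For MTX in flox mice (2) it became 1 (Cdkn2a) at an adjusted p below 0.05, 0 at a log2 fold change of at least 1.5, 0 with 6 libraries and 1 to 4 with 1 library left out. The all-gene counts beside these were 3326 and 2791 of 18702, 2167 of 17805, and 2219 to 5995. The interaction (0) became 1 (Ccnd1) with DESeq2, with DESeq2-type size factors in edgeR and without a filter, and 0 to 1 with 1 library left out. Beside it, 1248 and 237 of 18702, 472 of 34653, and 5 to 1371 genes were called. For MTX in KO mice the number of members called was 0 throughout, beside 0 to 281 of all genes.

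No pairing of the libraries by mouse number was seen, though 3 libraries per group are too few to exclude one. Deviations from the group means correlated at a median of 0.04 between same-numbered libraries of different groups (-0.27 to 0.25, 12 pairs) and of 0.01 between others, and 0 libraries were closest to their own number. With the mouse number as replicate block, members called were 0 for KO against flox under vehicle and 1 for MTX in flox mice (Cdkn2a), and the all-gene counts were 5080 and 2771 against 5924 and 4528 without it. Under the block the sign changed for Ccnd1 under vehicle (-0.10), Cdkn2a under MTX (-0.19), and, for MTX in KO mice, Ccnd2 (-0.00753), Cdk4 (0.0242) and Rb1 (-0.0803).

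Signs also changed with library size scaling for Ccne1 under MTX (0.0424), Ccne2 (-0.0573), Cdk6 (-0.00467) and Cdkn1b (-0.0469) with MTX in flox mice and Rb1 (-0.00739) with MTX in KO mice, with at least 10 counts for Ccnd1 under vehicle (-0.000928) and Rb1 (-0.00942), and with 6 libraries for Rb1 (-0.00732). With 1 library left out the sign changed within these ranges: under vehicle Ccnd1 (-0.12 to 0.22) and Rb1 (-0.27 to 0.0312), under MTX Ccne1 (-0.33 to 0.11) and Cdkn2a (-0.19 to 0.22), with MTX in flox mice Ccne2 (-0.0183 to 0.35), Cdk4 (-0.29 to 0.071), Cdk6 (-0.26 to 0.48) and Cdkn1b (-0.17 to 0.27), with MTX in KO mice Ccnd2 (-0.18 to 0.30), Cdk4 (-0.16 to 0.12) and Rb1 (-0.094 to 0.15), and in the interaction Cdk4 (-0.12 to 0.25), Cdk6 (-0.14 to 0.60) and Cdkn1b (-0.064 to 0.42). The cause was not tested.

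Counts over all genes that moved by more than 1.5 times were 3026 and 2791 at a log2 fold change of at least 1.5 for KO against flox under vehicle and MTX in flox mice. For KO against flox under MTX (0) they were 2769 with DESeq2, 875 without a filter, 1491 with at least 10 counts, 4 with 6 libraries and 0 to 4064 with 1 library left out, highest without flox MTX mouse 2. For MTX in flox mice (4528) they were 2198 with at least 10 counts, 2167 with 6 libraries and 2219 without flox mouse 3. For MTX in KO mice (0) they were 281 with DESeq2, 20 without a filter, 3 with 6 libraries and 215 without KO mouse 3. For the interaction (185) they were 33 at an adjusted p below 0.05, 1248 with DESeq2, 472 without a filter, 1 with at least 10 counts, 0 with the block and 5 to 1371 with 1 library left out. Library size scaling moved the median log2 fold change of all genes from -0.05 to 0.12 for KO against flox under MTX and from 0.05 to -0.15 for MTX in flox mice, where the calls split into 766 higher and 3607 lower against 1513 and 3015. Depth limits Cdkn2a most, at 17 to 95 counts.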
